A study of Mus musculus with 6 samples.

Results

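The samples described here are the 3 control aortas of a mouse RNA-seq series of 6 aortas, chosen by their GEO label as control (wild type, baseline). They came from male mice on a C57BL/6 background that carried the tamoxifen-inducible Myh11-CreERT2 transgene and wild-type Prdm16 alleles. The mice received tamoxifen by intraperitoneal injection, 1 mg per mouse per day for 10 injections from 8 weeks of age. The aortas were collected 60 days after a washout of 2 weeks. The wild-type label therefore refers to Prdm16, and the transgene and the tamoxifen were shared by every control. The transgene drives Cre from the smooth muscle myosin heavy chain promoter. The adventitia was stripped under a stereoscope before RNA was extracted, and each library is 1 mouse. No other group was compared, so the values describe the tissue and the spread between these mice, and no difference between groups was tested.

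The wall of the aorta is built in layers. An endothelial sheet faces the blood, the media holds concentric elastic lamellae with smooth muscle cells between them, and the adventitia is a fibroblast and collagen layer on the outside, surrounded by fat. Medial smooth muscle cells both contract and lay down the elastin and collagens of the wall. Transcription of their contractile genes depends on serum response factor, which binds the CArG box, together with its cofactor myocardin. PRDM16 is a zinc finger transcription factor best known from brown fat and is also present in arterial smooth muscle.

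Non-coding RNAs that stay in a library after depletion of ribosomal RNA took a large part of these counts. Rn7s1 and Rn7s2 encode 7SL, the RNA core of the signal recognition particle, and Rn7sk encodes 7SK, which holds the elongation factor P-TEFb inactive. Counts per 1000000 of the library total (CPM) for Rn7s2 were 151960 in Control 1, 147694 in Control 2 and 185116 in Control 3. Rn7s1 stood at 70257, 65039 and 52662 CPM in the same order. The annotated transcripts of these 2 genes are identical over all 300 bases, and yet Rn7s1 received 31.6%, 30.6% and 22.1% of their joint count. Only the sum of both can be read as 7SL, since how reads with several equal matches were assigned is not given in the sources used here.

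A pair of processed pseudogenes came next, and their sequences are shown because they make the same ambiguity visible (coordinates here and below are of GRCm38). Gm12896 had 29311, 22597 and 40737 CPM in Controls 1, 2 and 3, and Gm12895 had 28686, 22114 and 39999 CPM. Their transcripts are equal over 224 bases, and Gm12895 received 49.5%, 49.5% and 49.5% of the joint count. Control 3 was the highest and Control 2 the lowest for both. The stretches below begin at base 3 of Gm12895 (chr4:122455212-122455291, plus strand) and at base 1 of Gm12896 (chr4:122122847-122122926, plus strand).
Gm12895: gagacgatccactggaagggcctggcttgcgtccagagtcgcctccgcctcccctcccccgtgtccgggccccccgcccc
Gm12896: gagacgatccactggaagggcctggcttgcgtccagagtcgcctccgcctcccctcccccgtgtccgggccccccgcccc

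The same ambiguity touched the mitochondrial genome. Gm28661, Gm10925 and Gm28437, annotated on chromosome 1 as unprocessed pseudogenes, are identical to mt-Co2 over 681 bases, to mt-Atp6 over 678 bases and to mt-Co3 over 783 bases. Gm28661 received 57.6%, 56.7% and 59.2% of its joint count with mt-Co2, so the nuclear copy was credited with more than the mitochondrial gene in each mouse. Gm10925 received 44.7%, 44.6% and 43.7% of the joint count with mt-Atp6. Gm29216 differs from mt-Co1 at 1 of 483 aligned bases, shown in capitals below, and its level was 663, 516 and 103 CPM. It was the copy that varied most among the mice, with Control 3 far under the other libraries. The Gm29216 stretch is chr1:24616109-24616188 on the minus strand and the mt-Co1 stretch is chrM:6390-6469 on the plus strand.
Gm29216: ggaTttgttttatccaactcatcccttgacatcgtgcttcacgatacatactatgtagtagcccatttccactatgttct
mt-Co1: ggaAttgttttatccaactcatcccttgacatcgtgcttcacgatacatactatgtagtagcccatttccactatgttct

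By gene class, protein-coding genes held 64.6%, 66.1% and 59.03% of the counts in Controls 1, 2 and 3 (63.2 ± 3.71%, SD, n = 3). 7SL and 7SK together held 25.2%, 24.8% and 28.1% (26.0 ± 1.81%). Processed pseudogenes, led by the Gm12895 and Gm12896 pair, held 6.16%, 4.86% and 8.45%. Control 3 had the lowest coding share and the highest share in each of these other classes. Ribozymes held 1.29 ± 0.136%, nearly all of it on Rpph1, the RNA of ribonuclease P, and Rmrp, the RNA of its relative that processes ribosomal RNA. The lincRNA class held 0.9995 ± 0.152% and was led by Malat1, a nuclear speckle RNA, at 5652, 6929 and 7013 CPM. A further entry of Rmrp at the same place is classed as lincRNA, at 700, 1096 and 2192 CPM. The split of Rmrp between these classes is therefore uncertain. Carmn, a long non-coding RNA of smooth muscle, was at 160, 182 and 151 CPM. Library totals ran from 24911609 to 37589157 counts, and 15600 genes, among them 12819 of 21936 protein-coding genes, had a count over 10 in all 3 controls. At the other end, 4752 protein-coding genes had no count in any of them.

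**Figure D1:**
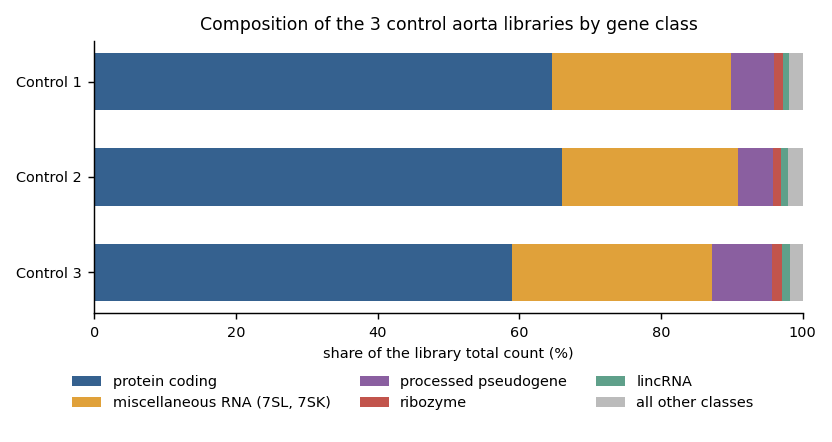
Share of each control library's total count by gene class (x axis, percent; one bar per mouse). Protein-coding genes fill 64.6%, 66.1% and 59.03% of Controls 1, 2 and 3, and the miscellaneous RNA class that holds 7SL and 7SK is widest in Control 3.

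Contractile and cytoskeletal transcripts led the protein-coding genes by count. Flna, the actin cross-linking filamin A, had the highest mean CPM, followed by Acta2 (smooth muscle α-actin) and Myh11 (smooth muscle myosin heavy chain). Fn1 (fibronectin), Tns1 (tensin 1), Ahnak, Bgn (biglycan), Vim (vimentin), Hspg2 (perlecan), Itga8 (integrin α8), Tagln (transgelin), Rgs5 and Dst were also among the 20 highest, with mitochondrial and housekeeping genes making up the rest. These 20 genes held 13.8%, 13.8% and 12.3% of coding counts (13.3 ± 0.888%, SD, n = 3). The 100 highest genes held 26.9 ± 0.991%, the 1000 highest held 58.0 ± 0.994%, and 616 genes were needed to reach 50% of coding counts. At 1000 CPM or more there were 57 protein-coding genes, and at 100 CPM or more there were 1149.

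A count favours long genes, so levels of different genes were compared after division by exon length. In what follows, the length-scaled level is the count per kilobase of exon, scaled to sum to 1000000 over the protein-coding genes of a library. On this scale 10 of the 20 highest genes were mitochondrial and 5 were in the contractile list described below, the cytoskeletal gene Flna among them. mt-Co1, a subunit of cytochrome c oxidase, was at 34678, 22324 and 21078 in Controls 1, 2 and 3, with Control 1 well above the others. Acta2 was at 20521, 29665 and 21804, with Control 2 highest, so its mean of 23997 ± 4951 (SD, n = 3) and the mt-Co1 mean of 26027 ± 7518 did not differ beyond their spread. Mgp (matrix Gla protein, an inhibitor of calcification) was at 7041, 9531 and 10640. Igfbp7 (an insulin-like growth factor binding protein) was at 6025, 7239 and 8884. Actb, Eef1a1 and Tmsb4x were the other nuclear genes of the 20. Eef1a1 (translation elongation factor 1α1) has 12 other genes with a near-identical stretch, so its level is uncertain. All 10 mitochondrial genes of the 20 were highest in Control 1, and the 13 mitochondrial genes together held 4.95%, 3.12% and 2.79% of coding counts. These levels and shares leave out what was credited to the chromosome 1 copies described above, so they are uncertain too. The 77 cytosolic ribosomal protein genes held 1.88%, 1.83% and 2.17%.

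**Figure D2:**
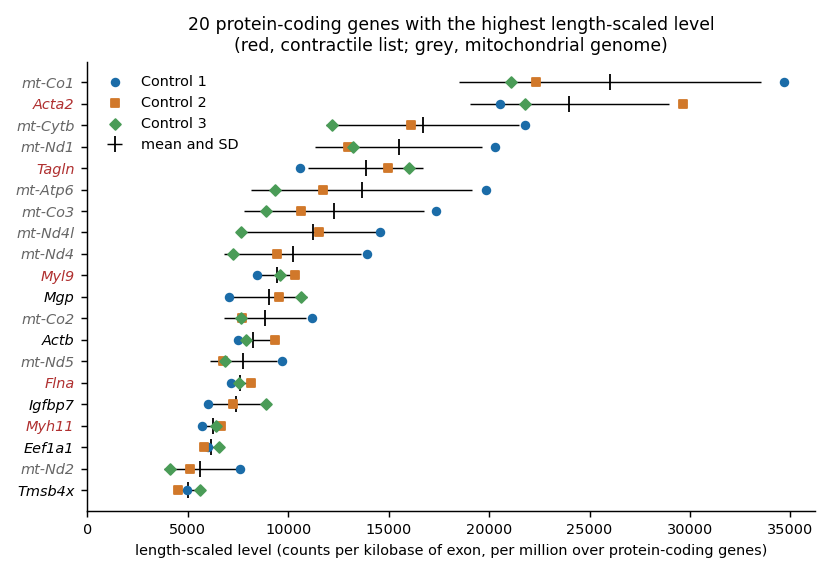
Length-scaled level (x axis, counts per kilobase of exon, scaled to 1000000 over protein-coding genes) of the 20 highest protein-coding genes, with a point per control and the mean with its SD. Acta2 lies at 20521 to 29665 and the grey mitochondrial genes have their highest point in Control 1.

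The contractile list (24 genes) was detected whole, and 22 of its members had a mean of 100 CPM or more. It held 7.42%, 8.40% and 7.72% of coding counts (7.85 ± 0.498%, SD, n = 3). The list also holds cytoskeletal genes, and Flna alone had 11632 of its mean summed 49672 CPM. Behind Acta2 came Tagln (transgelin, an actin-binding protein of smooth muscle) at a length-scaled level of 10607, 14969 and 16014. Myl9, the regulatory myosin light chain, was at 8443, 10346 and 9574. Flna was at 7159, 8127 and 7568 and Myh11 at 5700, 6672 and 6432, so both moved by far less between mice than Tagln. In rank among protein-coding genes Acta2, Tagln, Myl9, Flna and Myh11 were at 2, 5, 10, 15 and 17. Csrp1, Myl6, Smtn, Tpm2 and Cnn1 followed at ranks 25, 30, 34, 41 and 42. Actg2 (γ-actin of visceral smooth muscle) was at rank 250 and Des (desmin) at rank 589. The ranges of those first 5 genes did not overlap, although the lowest Tagln value of 10607 and the highest Myl9 value of 10346 lay close together. No member had an SD of log2 CPM over 1. Desmin had the largest at 0.32, with 104, 163 and 143 CPM, and Tpm1 the smallest at 0.05.

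A CArG box lay in the promoter window of 3 of the 19 contractile genes that the RefSeq promoter table holds (15.8%), against 488 of all 27025 genes of that table (1.81%). The window runs from 250 bases before to 50 bases after the annotated start, and a hit is a perfect match to the box, whose form is the same on both strands. Myl6, Myl9 and Vcl (vinculin, which ties actin to adhesions) had a match that begins 50, 161 and 227 bases upstream of the start. The regulator Srf, the gene of serum response factor itself, had 2 matches, the first 82 bases upstream, and was the 1 of 14 regulators with a match. Among the immediate early genes described below, 2 of 21 had a match (9.52%). The elastic fibre, collagen and other matrix lists had 0 of 12, 0 of 16 and 0 of 18. A match is a description of these letters and no statement about binding. The stretches below, with the box in capitals, are from GRCm38.p6: chr10:128493020-128493079 (minus strand), chr2:156775283-156775342 (plus strand), chr14:20929151-20929210 (plus strand) and chr17:46556205-46556264 (minus strand).
Myl6: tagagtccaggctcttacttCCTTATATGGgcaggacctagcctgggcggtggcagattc
Myl9: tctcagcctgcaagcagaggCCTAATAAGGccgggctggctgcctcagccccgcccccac
Vcl: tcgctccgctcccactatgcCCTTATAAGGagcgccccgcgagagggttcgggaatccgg
Srf: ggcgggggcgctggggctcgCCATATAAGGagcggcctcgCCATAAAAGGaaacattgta

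Transcription factors of vascular smooth muscle sat well below the genes of the contractile apparatus. Of the 19 regulators listed, which include the non-coding RNA Carmn, 18 were detected and 7, Carmn among them, reached 100 CPM. Foxc1, a forkhead factor, had a length-scaled level of 206, 196 and 205. Myocd, the gene of myocardin, was at 196, 196 and 161, and Mef2d was at 173, 174 and 164. Srf was at 150, 183 and 146. Prdm16 (chr4:154316125-154636873, minus strand) followed at 114, 147 and 122, with 182, 228 and 171 CPM, which placed it at rank 1126 of the protein-coding genes with a mean level of 128 ± 16.7 (SD, n = 3). The lowest Srf value, in Control 3, was just under the highest Prdm16 value, in Control 2, but within each mouse Srf was above Prdm16. This order of regulators depends on the length used. By mean CPM Mef2a was the highest at 215, with Prdm16 at 194, Myocd at 193, Foxc1 at 192 and Srf at 75.3. The exons of Mef2a cover 14681 bases and its longest transcript has 5538, and its mean length-scaled level was 90.1. Klf4, a factor linked to loss of the contractile state, was at 34.1, 64.2 and 28.5 CPM and had the largest spread of the detected regulators with a mean of 1 CPM or more (SD of log2 CPM 0.58). Tcf21 and Gata4 each had a mean under 1 CPM.

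Genes of the elastic fibre made up 0.957 ± 0.104% of coding counts (SD, n = 3), and 18 of 19 were detected. Ltbp4, a latent TGF-β binding protein of microfibrils, was at a length-scaled level of 1368, 1412 and 1333. Eln, the gene of elastin (chr5:134702593-134747323, minus strand), was at 840, 1529 and 896, so Control 2 stood clear of the other mice and above every Ltbp4 value. Its mean of 1089 ± 383 gave it rank 85, and its SD of log2 CPM was 0.47. The order of Ltbp4 and Eln depends on the length used, since their mean CPM was near equal at 1441 and 1439. Exons cover 6463 bases of Ltbp4 and 8098 of Eln, while the longest transcripts have 5386 and 3853 bases. Mfap4 was at 793, 782 and 562, lowest in Control 3. Fbn1 (fibrillin 1) varied little at 177, 208 and 227, and Fbln5 (fibulin 5, needed for elastic fibre assembly) spanned a wider range at 389, 271 and 209. Fbn2, the fibrillin of the embryo, had a mean of 0.064 CPM.

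Collagens held 1.66 ± 0.170% of coding counts. Of the basement membrane members, Col18a1 was at a length-scaled level of 1509, 1934 and 1986, Col4a1 at 824, 1082 and 1077, and Col4a2 at 752, 1020 and 956. The fibrillar chain Col1a1 was at 669, 901 and 1048, and Col1a2 was at 533, 587 and 695. Col3a1 (chr1:45311538-45349706, plus strand) was at 602, 700 and 727, a mean of 676 ± 65.7 and rank 168. Control 1 was the lowest of the mice for each of these chains, whose order by level depends on the transcript length used. Of the 20 collagens 13 reached 100 CPM, while Col11a1 had a mean of 0.142 CPM.

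Other matrix genes took the largest share of the 3 matrix lists (3.32 ± 0.332% of coding counts). After Mgp came Bgn, a small proteoglycan, at a length-scaled level of 3768, 3580 and 2641, lowest in Control 3. Fn1 was at 2146, 3044 and 1921, highest in Control 2. Ccn3, a matricellular protein gene (chr15:54745702-54754039, plus strand), was at 1875, 1996 and 2447, a mean of 2106 ± 302 and rank 40, with 917, 956 and 1053 CPM. Its relative Ccn1 was far less even, at 131, 478 and 134 CPM, and was the 1 gene of this list with an SD of log2 CPM over 1 (1.03). Postn (periostin) was among the steadiest, at 799, 843 and 858.

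Across the 6 marker genes the order by length-scaled level was Acta2, Myh11, Ccn3, Eln, Col3a1 and Prdm16. The ranges of Eln and Col3a1 did not overlap (lowest Eln 840, highest Col3a1 727), nor did those of any other neighbours. The rank depended on the length used. With the longest transcript in place of all exons Eln moved from 85 to 50 and Col3a1 from 168 to 109. Myh11 moved from 17 to 20, Ccn3 from 40 to 54 and Prdm16 from 1126 to 1431, so Eln then ranked above Ccn3. By CPM alone the ranks were 2, 3, 62, 33, 54 and 482 in the order from Acta2 to Prdm16 above. Acta2 and Myh11, the defining markers of smooth muscle among them, were the 2 highest in every mouse.

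**Figure D3:**
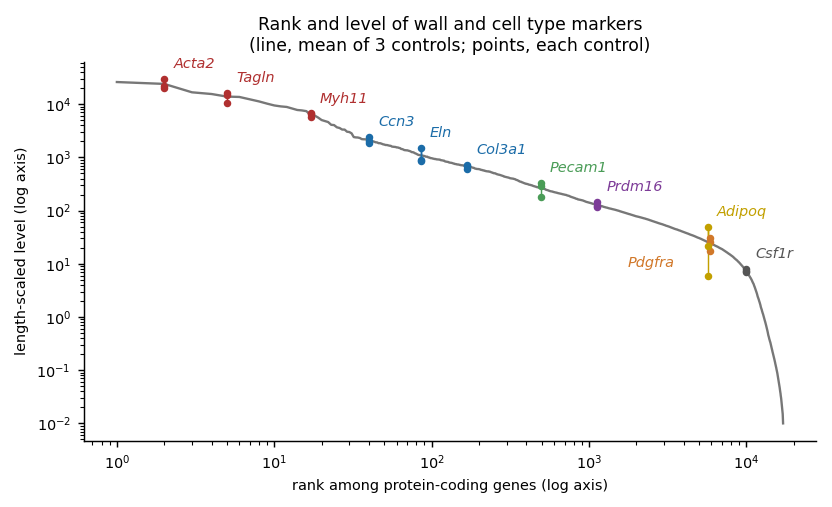
Mean length-scaled level of protein-coding genes (y axis, log) against rank (x axis, log), with the value of each control for marker genes as points. The smooth muscle markers Acta2, Tagln and Myh11 lie at ranks 2, 5 and 17, Prdm16 at 1126, and the fibroblast marker Pdgfra and macrophage marker Csf1r at 5906 and 9927.

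Cells other than smooth muscle left smaller traces, and these traces differed between mice. In bulk tissue, fewer cells of a type and less RNA per cell cannot be told apart. For scale, among the 13970 genes that were detected and had a mean of 1 CPM or more, Control 1, 2 and 3 were highest for 33.3%, 32.3% and 34.4% and lowest for 32.2%, 34.0% and 33.8% (log2 CPM with TMM scaling, which sets libraries to a common level by a trimmed mean of log ratios). With libraries scaled to their coding total instead, Control 3 was highest for 46.2% and lowest for 24.1%, and with plain CPM it was highest for 25.1% and lowest for 43.6%.

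Endothelial markers were all detected (14 of 14), and Control 2 was highest for 13 and Control 3 lowest for 13, under each of the 4 scalings tried. Pecam1, an adhesion molecule of endothelial junctions, was at 309, 340 and 168 CPM. Vwf (von Willebrand factor) was at 383, 459 and 194 CPM and Cdh5 (VE-cadherin) at 50.7, 67.9 and 22.6 CPM. The list held 0.198%, 0.240% and 0.121% of coding counts, a 1.98-fold range between Controls 2 and 3. Blood transcripts were also lowest in Control 3: the globin gene Hbb-bs was at 38.9, 34.8 and 13.3 CPM and Hba-a2 at 29.4, 30.2 and 12.2 CPM. Hba-a2 shares a near-identical stretch of 538 bases with Hba-a1, so its own level is uncertain.

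Fibroblast markers ran in another direction. Of the 13 in the set with a mean of 1 CPM or more, Control 1 was highest for 11 and Control 2 lowest for 10. Pdgfra, a receptor of adventitial fibroblasts, was at 52.4, 28.8 and 37.8 CPM, Dpt (dermatopontin) at 36.4, 15.1 and 20.8 CPM, and Pi16 at 39.7, 23.3 and 23.5 CPM. Cd248, at 41.6, 41.3 and 36.6 CPM, Cd34, at 41.2, 41.9 and 26.9 CPM, and Ly6a, at 16.1, 20.8 and 10.2 CPM, were lowest in Control 3 instead. The fibroblast proteoglycan genes Dcn and Lum showed the same order as Pdgfra, at 143, 63.7 and 111 CPM and at 41.6, 19.5 and 28.4 CPM. No gene of the fibroblast list reached a mean of 100 CPM, while Dcn, which is in the list of other matrix genes, had a mean of 106 CPM.

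Markers of immune cells were low. The macrophage list summed to 50.4, 48.4 and 42.6 CPM over 14 genes, with Lyz2 at 9.38, 7.77 and 7.83 CPM, Csf1r at 7.86, 7.05 and 6.19 CPM and Adgre1 at 1.22, 1.62 and 1.53 CPM. Of 14 lymphocyte genes, Ighm alone was detected, at 2.31, 6.52 and 3.25 CPM. Cd3e, a T cell receptor subunit, was at 0, 0.080 and 0.161 CPM and the B cell gene Ms4a1 at 0, 0.080 and 0.040 CPM.

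Striated muscle and mesothelial genes were near the floor, with exceptions. Myl7 of atrial muscle, Tnni2 of fast skeletal muscle and Upk1b of mesothelium had no count in any control. Myh6, the cardiac myosin heavy chain, was at 1.78, 0.743 and 0.382 CPM, highest in Control 1. Ryr2, a calcium release channel that smooth muscle also uses, was at 111, 145 and 122 CPM and made up most of the summed count of the cardiomyocyte list. Tnnt2 (cardiac troponin T) was at 17.4, 10.9 and 12.9 CPM. Dividing cells were rare by their transcripts: Mki67 was at 1.96, 2.93 and 1.16 CPM and Top2a at 0.920, 1.62 and 0.843 CPM.

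**Figure D4:**
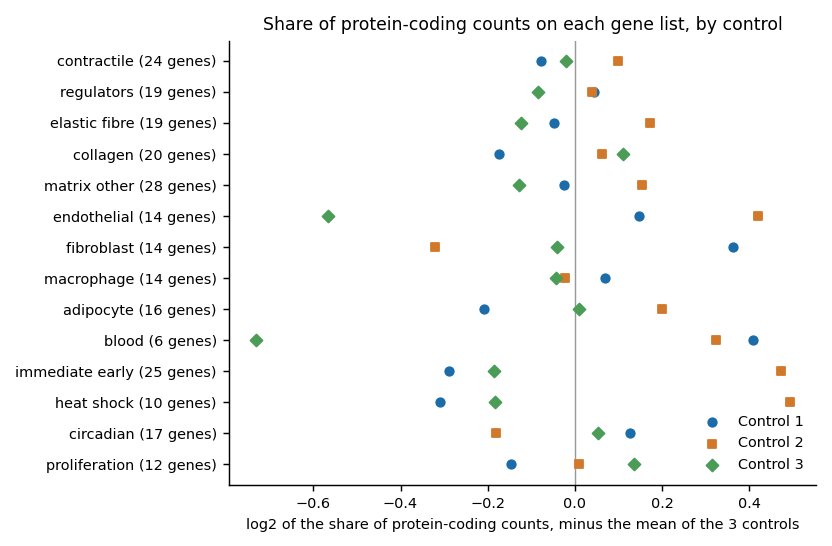
Share of protein-coding counts on each gene list (x axis, log2, minus the mean of the 3 controls), with a point per control. The endothelial and blood lists have Control 3 far to the left (−0.57 and −0.73), the fibroblast list has Control 1 to the right (0.36), and the immediate early and heat shock lists have Control 2 to the right (0.47 and 0.49).

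Control 2 carried more transcript of early response genes. All 25 immediate early genes were detected, and Control 2 was highest for 20 of them. Fos, a subunit of the AP-1 factor, was at 50.01, 218 and 37.7 CPM, Fosb at 33.4, 110 and 21.03 CPM, Nr4a1 at 46.7, 259 and 86.0 CPM, and Atf3 at 16.5, 72.5 and 23.2 CPM. These 4 were the members with an SD of log2 CPM over 1. Egr1 was at 146, 345 and 114 CPM (SD of log2 CPM 0.80). Other members were even: Jund was at 241, 256 and 258 CPM, Rhob at 258, 260 and 266 CPM, and Klf6 at 189, 186 and 175 CPM. In the list, 10 genes had a mean of 100 CPM or more.

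Control 2 was highest for 7 of the 10 heat shock genes. The inducible HSP70 genes Hspa1b and Hspa1a were at 65.1, 291 and 58.1 CPM and at 61.0, 246 and 53.2 CPM, and share a stretch of 2201 bases at 99.2% identity, so their split is uncertain. Dnajb1, an HSP70 co-chaperone, was at 19.6, 54.2 and 19.5 CPM. The chaperones Hsp90aa1, at 179, 199 and 198 CPM, and Hspd1, at 46.2, 47.8 and 55.0 CPM, stayed within a narrow range. Remnants of ribosomal RNA were highest in the same library: CT010467.1, annotated as ribosomal RNA, was at 351, 4530 and 427 CPM, and the mitochondrial ribosomal RNA genes mt-Rnr1 and mt-Rnr2 were at 9.68, 63.7 and 10.2 CPM and at 17.98, 82.6 and 19.99 CPM. Their part in the early response and heat shock values was not tested.

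Of the 17 clock genes and clock outputs, 5 had a mean of 100 CPM or more. Dbp had a length-scaled level of 584, 446 and 701, Nr1d1 (REV-ERBα, a repressor of the clock) 507, 684 and 442, and Tef 211, 151 and 197. Arntl, the gene of the activator BMAL1, was at 0.979, 2.55 and 0.763 CPM, a scale not divided by length. Dbp and Nr1d1 had opposite orders among the mice, with Control 2 lowest for Dbp and highest for Nr1d1, and Arntl was highest in Control 2 as well. The time of day of collection was not given in the labels or methods used here.

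Most genes differed little among the mice, although by more than counting alone would give. The median SD of log2 CPM over the 13970 genes was 0.16, where counting alone would give a median of 0.07, and 10% of genes had an SD above 0.42. The biological coefficient of variation from edgeR, fitted to the 15600 detected genes, was 0.163. Between pairs of mice the median absolute log2 difference was 0.18 for Controls 1 and 2, 0.19 for Controls 1 and 3 and 0.20 for Controls 2 and 3. An SD over 1 was seen for 82 genes (0.587%). A count over 10 in all 3 controls keeps the counting SD so low that each necessarily exceeded 2 times it. Of all 13970 genes, 7968 had an SD over 2 times their counting SD. Of the 82, 51 were protein coding, 9 were processed pseudogenes and 6 were small nuclear RNAs. Control 2 was highest for 51 of the 82 and Control 1 lowest for 50. Over the remaining pair, an SD over 1 was seen for 137 genes without Control 1, 102 without Control 2 and 143 without Control 3.

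**Figure D5:**
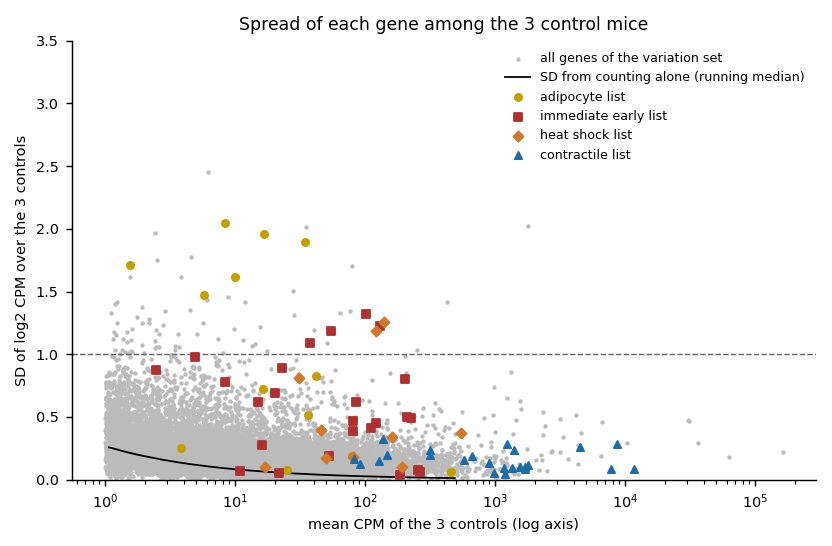
SD of log2 CPM over the 3 controls (y axis) against mean CPM (x axis, log) for 13970 genes, with the counting SD as a line and 4 gene lists as symbols. The dashed line is an SD of 1, which 82 genes exceed. Above it lie 6 of 13 adipocyte, 4 of 25 immediate early and 2 of 10 heat shock genes, and no contractile gene.

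Fat genes were the largest named group among the most variable. Of the 13 adipocyte genes in the set with a mean of 1 CPM or more, 6 had an SD over 1, and Control 2 was highest for 10 and Control 1 lowest for 10. Cidec, a lipid droplet protein, was at 1.01, 18.3 and 5.58 CPM (SD of log2 CPM 2.05). Cfd (adipsin) was at 5.46, 78.1 and 19.6 CPM and Pck1 (phosphoenolpyruvate carboxykinase) at 2.23, 29.2 and 18.5 CPM. Plin1, the droplet coat perilipin, was at 2.08, 20.3 and 7.55 CPM, and the hormones Adipoq and Retn at 1.39, 11.4 and 4.42 CPM and at 0.326, 3.75 and 0.562 CPM. The 3 mice gave separate levels, in the order Control 2, Control 3 and Control 1, for Cidec, Cfd, Pck1, Plin1 and Adipoq. Of the 20 most variable genes, Car3 (4.78, 80.8 and 19.7 CPM), Trarg1 (0.445, 5.75 and 1.24 CPM) and Cyp2e1 (1.52, 11.5 and 5.08 CPM) had the same order. Plin4, by contrast, was both the highest of the list and even, at 475, 471 and 424 CPM.

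Brown fat genes followed another order. Ucp1, the uncoupling protein of brown fat, was at 0.267, 4.31 and 31.6 CPM and Cox8b at 0.119, 0.612 and 3.37 CPM, highest in Control 3. Both had a count of 10 or less in Control 1 and so lay outside the set in which variable genes were counted. Cidea was less spread at 3.00, 6.12 and 8.15 CPM, and Ppargc1a differed little at 4.90, 3.67 and 4.82 CPM.

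Small structural RNAs formed another group of the most variable. Gm24950, a copy of the U2 spliceosomal RNA with 12 near-identical genes, had the largest SD (2.46) at 0.418, 11.3 and 6.92 CPM. Rnu2-10, also with 12, was at 2.93, 19.6 and 12.9 CPM. The level and spread of each copy are uncertain. Gm23971, which like Gm24950 equals the copy Gm23849 over 191 bases, was at 56.5, 172 and 108 CPM (SD 0.79). The pair Gm24265 and Gm24407 was at 22.9, 151 and 53.8 CPM and at 19.97, 129 and 42.8 CPM. It matches at 98.6% over 141 bases, so the split is uncertain. CT010467.1, whose values are given above, had an SD of 2.02. Lars2, the mitochondrial leucyl-tRNA synthetase, was at 22.4, 189 and 24.5 CPM and was highest in the library that was highest for the ribosomal remnants. Its longest transcript, of 3894 bases, had no near-identical stretch of 100 bases or more among the annotated transcripts of other genes. The exons of Lars2 cover 11089 bases in all, and the rest of them was not searched. Control 1 was the lowest of the mice for all of these RNAs.

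The rest of the 20 most variable genes were of low level. Efhd1os was at 0.323, 1.27 and 5.66 CPM, Gm36569 at 2.10, 9.65 and 14.5 CPM and Rps12l1 at 0.744, 4.17 and 6.56 CPM, each highest in Control 3. Rps12l1 has 22 near-identical genes, so its level is uncertain. Gm45140 was at 0.724, 7.03 and 5.85 CPM and Tmem45b at 0.475, 3.70 and 0.442 CPM. Gm45140 shares 4166 bases with Rab43 without a difference, so its level is uncertain too. Pde2a, a phosphodiesterase, was alone among the 20 in being highest in Control 1, at 2.67, 0.345 and 0.654 CPM. It shares 3851 bases with Gm45837 at 99.6% identity. Gm45837 had the reverse order among the mice, at 0, 2.711 and 1.496 CPM. The level and spread of Pde2a are therefore uncertain, and how reads were divided between these genes was not tested. Genes of antigen presentation, chosen after their values were seen, also passed an SD of 1: the invariant chain gene Cd74 was at 42.1, 89.97 and 18.6 CPM, H2-Ab1 at 13.6, 24.0 and 5.10 CPM and H2-Aa at 11.5, 23.5 and 5.02 CPM. They had the order of the endothelial markers, highest in Control 2 and lowest in Control 3. The immune cell genes Itgax, at 0.861, 2.18 and 0.361 CPM, and Cx3cr1, at 1.48, 1.57 and 0.361 CPM, had this order too. Both had a count of 10 or less in Control 3. Of the 11 macrophage genes in the set, Control 2 was highest for 5 and Control 3 lowest for 3. Which cells carried the antigen presentation transcripts was not tested.

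At the other end of the scale, protein-coding genes with a mean of 100 CPM or more had a median SD of log2 CPM of 0.13 (1149 genes), below that of all genes. The 5 least variable were Ash1l, a histone methyltransferase, at 184, 189 and 178 CPM, Pde4dip at 358, 367 and 344 CPM, the anchoring protein gene Akap6 at 112, 115 and 109 CPM, Ctnnb1 (β-catenin) at 482, 495 and 462 CPM, and Akap13 at 324, 329 and 311 CPM. With 3 mice such a small SD is partly what the lowest of many values gives, and these genes are named as a description.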

How the data were processed

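The authors extracted total RNA from 3 control and 3 knockout aortas, depleted ribosomal RNA and sequenced paired-end reads of 150 bases. Per the labels and the study's methods, reads were demultiplexed with bcl2fastq and mapped and quantified with Illumina DRAGEN (versions not given in the sources used here) against Ensembl release 101 on mm10. The deposited table holds estimated counts for each gene and library that had not been normalized. The 3 knockout columns were not used. Values were not all whole numbers and were rounded for detection and spread. CPM used each library's total. Gene lengths are unions of exons from GENCODE M21 and were found for 21894 of 21936 protein-coding genes. TMM factors and the coefficient of variation came from edgeR 4.0.16 in R 4.3.3, and log2 CPM had a prior count of 2. A gene was detected with a rounded count over 10 in all 3 controls, and spread was described for those with a mean of 1 CPM or more. Copies are transcripts matched by blastn 2.17.0 at 95% identity or more over 100 bases or more. Only the longest transcript of each gene was searched, on its own strand. Promoter windows are from RefSeq on GRCm38.p6. No pair of libraries agreed within sampling noise (chi-square per degree of freedom 40.7 to 60.7). Labels and design give separate mice, so each SD is between 3 mice. The spread calculation was tested on simulated data.

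Genes named are the 6 markers, the 5 genes of any class with the highest mean CPM, the 20 protein-coding genes highest by CPM and by length-scaled level, the 20 with the largest SD, in each list the 3 highest members, defining markers near 0 and members with an SD over 1, and the 5 least variable with a mean of 100 CPM or more. Others were chosen after their values were seen. The members and lists were chosen with earlier results of these data known. Alternatives were leaving out each mouse, other scalings (library total, coding total, DESeq2 1.42.0 size factors), prior counts, low-count filters, gene lengths and denominators.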

Additional observations from a re-analysis of the deposited data

How the results depend on the processing

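No paired analysis was possible because only 1 group was described and no result comes from a test. With 7SL and 7SK out of the total, the protein-coding share was 85.4%. Taking the 20 genes with the highest length-scaled level lowered their share of coding counts to 10.6%, and ranking the markers by CPM moved their median rank from 62.5 to 43.5. With a mean of 10 CPM or more, 25 genes had an SD over 1 (all 25 among the 82) and the median SD was 0.13. The median SD was 0.17 with the coding total and 0.18 with no CPM minimum. Leaving out each mouse in turn gave 102 to 143 genes with an SD over 1 and a median SD of 0.13 to 0.14. Of the 82 genes, 47 remained without Control 1, 43 without Control 2 and 59 without Control 3. Leaving out a mouse changed the other results by less than the spread between mice (shares, ranks) or less than 1.5 times (genes detected, 15762 to 16469), and so did the scalings other than those given. An alternative chosen after seeing the data, a count over 10 in at least 1 control, gave 113 genes with an SD over 1. The SD of a gene rests on 3 mice, and low counts widen it.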
